A study of Homo sapiens with 2 samples.

Results

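The miRNAs of the imprinted DLK1-DIO3 domain on chromosome 14q32 were examined in exosomes, small vesicles shed into the culture medium, of 2 human liver cancer cell lines. Members were all mature miRNAs whose name, without arm and copy number, was one of 44 names of the domain. Entries were found for 39 of these names, which gave 53 mature miRNAs among 793 in the table, 21 of them 5p arms, 30 of them 3p arms and 2 named without an arm. The other 5 names (miR-154, miR-337, miR-665, miR-668 and miR-889) were not analysed here. One library came from the highly metastatic line MHCC97H and 1 from the line HepG2, and both are labelled hepatocellular carcinoma. Per the series' design text, both lines grew in DMEM with exosome-free serum, and exosomes were taken from the supernatant by ultracentrifugation. No treatment is named. With 1 library per line there was no replicate check and no test between the lines, and cell line cannot be told apart from culture or library preparation.

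The domain holds genes read from only 1 parental chromosome. The protein genes DLK1, RTL1 and DIO3 are expressed from the paternal copy, while the long RNAs MEG3 and MEG8, a run of snoRNAs and the miRNAs are expressed from the maternal copy. The miRNAs are thought to be cut from long shared transcripts. In most adult tissues they are low outside the brain, and reactivation of the cluster has been described in a subset of human liver cancers. In mice, the distal miRNAs are needed for the switch to liver-based energy supply at birth.

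The results turn on a small number of sequences. RefSeq's mature sequences (GRCh38.p14) matched all 53 members by name. Those of the 6 members that met both criteria of a difference, and of the 2 most abundant members, are printed 5′ to 3′ with the seed (bases 2 to 8, which pair with targets) in capitals.
miR-493-5p: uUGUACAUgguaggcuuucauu
miR-493-3p: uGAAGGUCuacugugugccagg
miR-136-3p: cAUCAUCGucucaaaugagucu
miR-379-5p: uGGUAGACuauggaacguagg
miR-411-5p: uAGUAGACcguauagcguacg
miR-494-3p: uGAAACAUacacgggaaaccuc
miR-381-3p: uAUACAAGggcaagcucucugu
miR-382-3p: aAUCAUUCacggacaacacuu
The hairpin of MIR493 (chr14:100869060-100869148, plus strand, GRCh38.p14), whose arms were both called, is shown with its 5p and then its 3p arm in capitals.
MIR493: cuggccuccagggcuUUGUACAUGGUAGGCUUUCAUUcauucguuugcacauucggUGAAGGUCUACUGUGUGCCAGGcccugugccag

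All members lay on the plus strand of chromosome 14, and their mature starts spanned 198 kb between miR-493-5p and miR-656-3p. A gap of 111 kb before miR-379-5p separated a proximal segment of 10 mature miRNAs from a distal one of 43, and the next largest gap was 26.4 kb. In GENCODE release 29, the miR-493 arms lay in an intron of the long RNA AL117190.1. The 7 arms of miR-431, miR-433, miR-127, miR-432 and miR-136 lay in the same gene's intron and opposite an exon of RTL1, whose mRNA they can cleave by full complementarity, as shown for several of them in mice. In the distal segment, members lay in introns of MEG8 (miR-379 to miR-495), introns of MIR381HG (miR-381 to miR-655), introns or exons of MEG9 (miR-541 to miR-656), or outside annotated long genes. The 53 members carried 50 distinct seeds. Shared seeds occurred for miR-379-3p with miR-411-3p, miR-410-5p with miR-494-5p, and miR-376a-3p with miR-376b-3p, and these 6 arms had few reads. Another 2 members shared a seed with a listed miRNA outside the cluster, miR-134-5p with miR-3118 and miR-655-3p with miR-374c-5p. The members had a median GC content of 45.5%, against 50% in the 651 other miRNAs with a RefSeq sequence. A first base U was found in 37.7% of the member sequences and 39.0% of the others. Counted by reads, 81.4% of member reads and 63.8% of other reads began with U in MHCC97H, and 81.7% of member reads and 69.8% of other reads did in HepG2. Averaged over reads, GC content was 46.4% for members and 44.2% for others in MHCC97H. In HepG2 it was 44.9% for members and 42.3% for others. These are averages, so they are not set against the medians above. Values by reads lean on miR-379-5p and miR-381-3p, which both begin with U. Together they held 54.9% of member reads in MHCC97H and 42.6% in HepG2.

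With each repeated name at its highest count, sequencing depth was 304457 miRNA reads in MHCC97H, against 22831 in HepG2. MHCC97H was thus read 13.3 times as deeply. Levels are given as CPM, the reads scaled to a library of 1000000 miRNA reads. A single read stood for 3.28 CPM in MHCC97H and for 43.8 CPM in HepG2. The floor, the level that a miRNA with no read may still have, was taken as 3 reads per library, or 9.85 CPM in MHCC97H and 131 CPM in HepG2. Intervals are exact 95% intervals (Clopper-Pearson for shares and for the split of reads between libraries, Poisson for levels), and like the floors they cover counting error only. No molecular identifiers are described for the library kit, so reads may not be independent molecules.

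The cluster took a smaller part of the reads in MHCC97H exosomes than in HepG2 exosomes. It had 2631 reads in MHCC97H, 0.864% of the library (0.832 to 0.898%), and 289 reads in HepG2, 1.27% of the library (1.13 to 1.42%). The ratio of MHCC97H over HepG2 was 0.683 (0.604 to 0.774), a difference beyond counting error but under 2-fold. It lay further from 1 without miR-379-5p and miR-381-3p, at 0.536 (0.455 to 0.634), and nearer to 1 without both arms of miR-493, at 0.786 (0.685 to 0.906).

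The proximal segment had the lower ratio. It took 0.163% of miRNA reads in MHCC97H and 0.394% (90 reads) in HepG2, and the ratio was 0.412 (0.329 to 0.522). The distal segment took 0.702% (2136 reads) in MHCC97H and 0.872% in HepG2, and its ratio was 0.805 (0.696 to 0.935). Set against each other, the proximal ratio was 0.513 of the distal one (exact 95% interval 0.39 to 0.678). Without miR-493 the proximal segment had 213 reads in MHCC97H and 25 in HepG2, its ratio was 0.639 (0.421 to 1.01), and it stood at 0.794 of the distal ratio (0.508 to 1.29), an interval that includes 1. Without miR-493 the segments were thus not apart beyond counting error. That interval also holds the 0.513 of the whole proximal segment, on 25 HepG2 reads. It cannot show whether the rest of the segment matched the distal one.

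**Figure D1:**
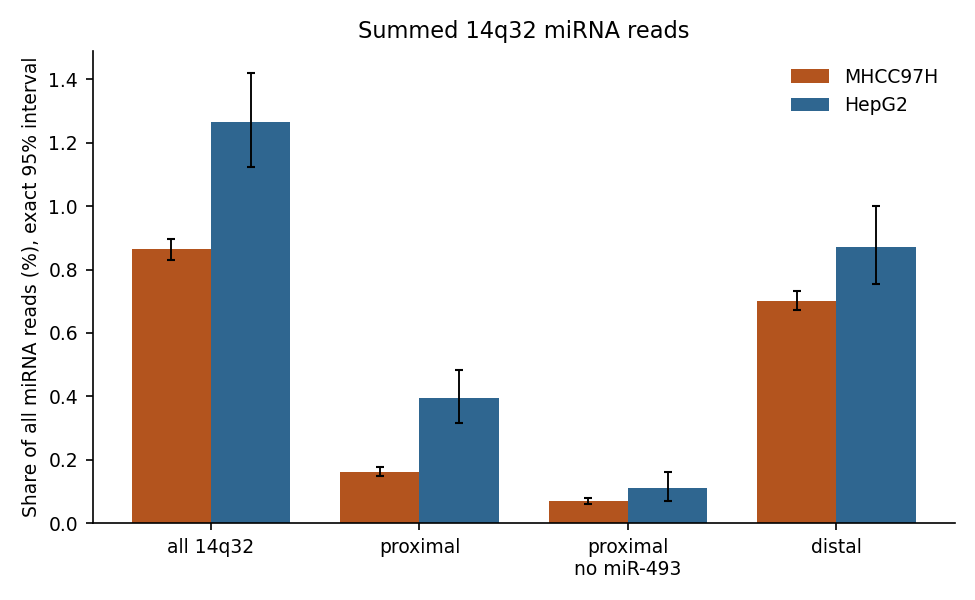
Share of all miRNA reads (%, y axis) taken by the 14q32 miRNAs and by the parts of the locus (x axis), MHCC97H left of HepG2, with bars for the share in 1 library each and error bars for exact 95% intervals. The proximal segment stood at 0.163% in MHCC97H and 0.394% in HepG2, and without miR-493 at 0.0700% in MHCC97H and 0.110% in HepG2.

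The members were also grouped by long host gene, a grouping made after the values were seen. The 9 mature miRNAs in AL117190.1 alone had 481 reads in MHCC97H, 88 in HepG2 and a ratio of 0.410 (0.326 to 0.521). The 15 in MEG8, with miR-370-3p, which lies in both genes, took 0.317% of reads in MHCC97H and 0.442% in HepG2, with a ratio of 0.716 (0.583 to 0.888). The 4 in MIR381HG had a ratio of 0.894 (0.691 to 1.18), on 751 reads in MHCC97H and 63 in HepG2. The 9 in MEG9 had a ratio of 1.38 (0.809 to 2.56), on 258 reads in MHCC97H and 14 in HepG2. Single miRNAs weighed heavily in these sums, and each ratio was also taken without the one named. Without miR-493 the AL117190.1 ratio was 0.649 (0.42 to 1.05), an interval that includes 1. Without miR-379-5p the MEG8 ratio was 0.494 (0.347 to 0.722), without miR-381-3p the MIR381HG ratio was 0.495 (0.192 to 1.62), and without miR-409-3p the MEG9 ratio was 1.06 (0.589 to 2.08). The 16 mature miRNAs outside these 4 genes had a ratio of 0.577 (0.373 to 0.934), on 177 reads in MHCC97H and 23 in HepG2.

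Of the 53 members, 51 were detected in MHCC97H and 32 in HepG2, with 30 in both. Drawn down to the HepG2 depth, the MHCC97H library would be expected to show 26.8 members. By the same calculation it would be expected to show 411.8 of all miRNAs, where HepG2 showed 362. Members detected in HepG2 were thus somewhat above that number, and miRNAs in general below it. The 2 members detected in HepG2 alone, miR-376a-3p and miR-539-5p, had 1 read each. The 21 detected in MHCC97H alone had at most 17 reads there (miR-410-3p, 55.8 CPM), which is under the HepG2 floor of 131 CPM, so a difference was not detectable for any of them at this depth. In HepG2, 16 of the 32 detected members had only 1 or 2 reads and 6 had 10 or more.

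**Figure D2:**
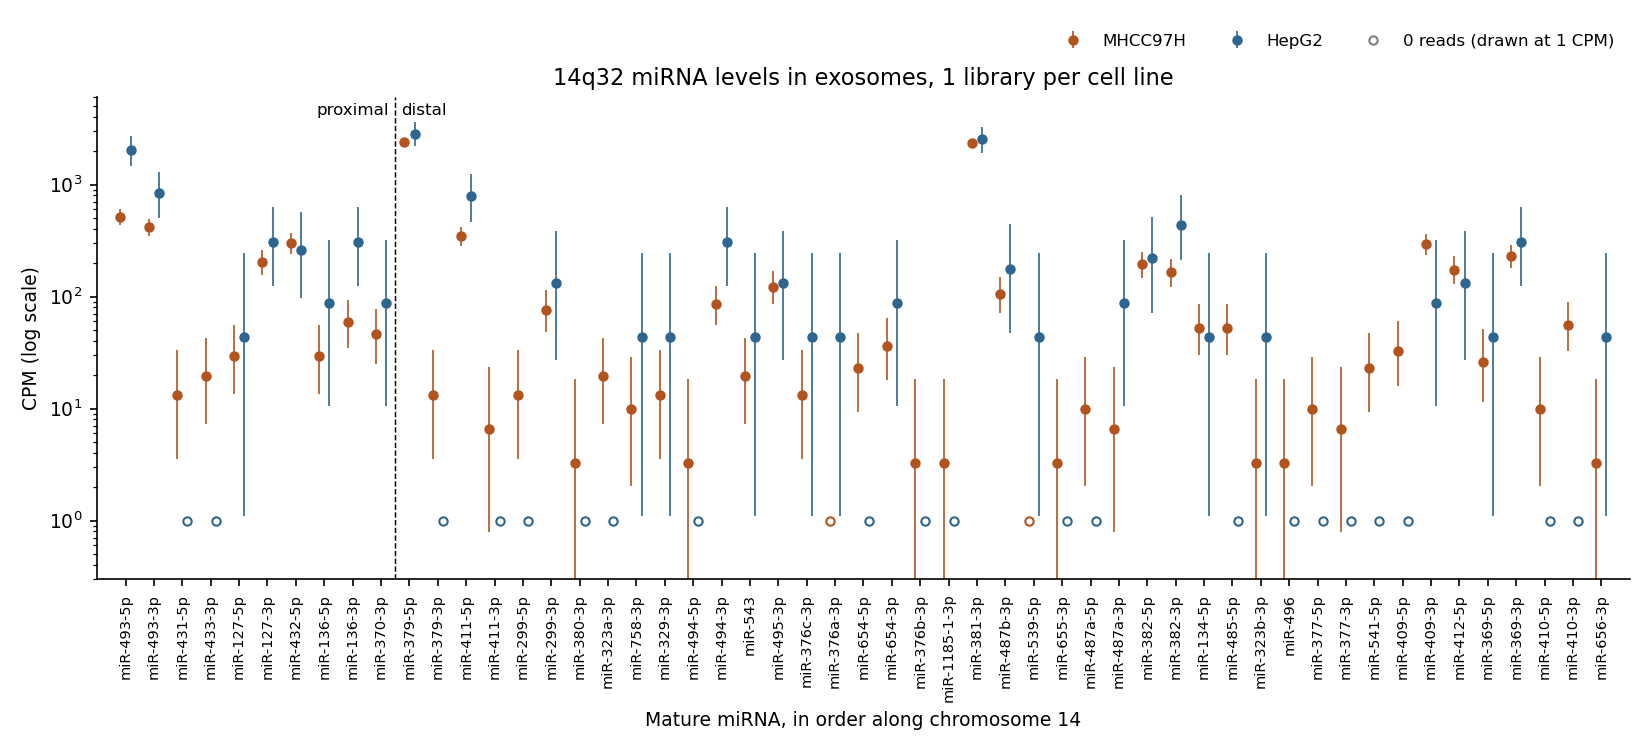
CPM (y axis, log scale) of each of the 53 mature 14q32 miRNAs (x axis, in chromosomal order) in MHCC97H and HepG2, with exact Poisson 95% intervals, open circles for 0 reads, and a dashed line at the gap between segments. miR-379-5p and miR-381-3p stood highest in both libraries, at 2388 and 2358 CPM in MHCC97H and 2847 and 2540 CPM in HepG2.

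A member was called different when its CPM ratio was at least 2-fold in either direction and the exact interval of the ratio excluded 1. By this rule 6 of 53 members were lower in MHCC97H than in HepG2 (11.3%), where 6.18% of all 793 miRNAs were called in that direction. None was called higher in MHCC97H, where 14% of all miRNAs were. The 2 directions were not equally open to a call at these depths. With no HepG2 read, 43 MHCC97H reads (miR-335-3p, outside the cluster) left a lower end of 0.837. At 78 reads (miR-296-3p, also outside) it was 1.55. Only 23 of the 53 members had even 10 MHCC97H reads, whereas miR-136-3p was called on 7 HepG2 reads. The absence of calls towards MHCC97H therefore cannot show that no member was higher there. The other 47 were called in neither direction. By size alone 22 members would be higher in MHCC97H, against 67% of all miRNAs, and 17 higher in HepG2, against 17.3%. No HepG2 read was found for 21 of those 22, while 11 of those 17 rested on 1 or 2 HepG2 reads.

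The largest shift with good coverage was that of miR-493, the first of the members' hairpins along the chromosome. In human colon cancer cells it has been described to restrain metastasis to the liver. miR-493-5p had 156 reads (512.4 CPM) in MHCC97H and 46 reads (2015 CPM) in HepG2, with a ratio of 0.254 (0.182 to 0.361). At the MHCC97H level, the HepG2 library would hold 11.7 reads of it. miR-493-3p stood at 414 CPM in MHCC97H and at 832 CPM (19 reads) in HepG2, with a ratio of 0.497 (0.306 to 0.853), at the edge of the size criterion. The 5p arm stood at rank 135 of all miRNAs in MHCC97H and at rank 55 in HepG2.

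Of the miRNAs opposite RTL1, 1 was called. miR-136-3p had 18 reads (59.1 CPM) in MHCC97H and 7 reads (307 CPM) in HepG2, with a ratio of 0.193 (0.0768 to 0.546). miR-127-3p, which has been described to repress the oncogene BCL6 in human cancer cells, had 62 reads (204 CPM) in MHCC97H and 7 reads (307 CPM) in HepG2, with a ratio of 0.664 (0.304 to 1.72). miR-432-5p had 91 reads (298.9 CPM) in MHCC97H and 6 reads (263 CPM) in HepG2, with a ratio of 1.14 (0.503 to 3.18). The intervals of miR-127-3p and miR-432-5p included 1. The 7 arms of this group together took 0.0654% of reads in MHCC97H and 0.101% (23 reads) in HepG2, with a ratio of 0.649 (0.42 to 1.05) whose interval also included 1.

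Both neighbors at the start of the distal segment were abundant, and 1 of them was called. miR-379-5p had 727 reads (2388 CPM) in MHCC97H and 65 reads (2847 CPM) in HepG2, with a ratio of 0.839 (0.65 to 1.1). miR-411-5p, whose mature sequence starts 1.23 kb after that of miR-379-3p, had 106 reads (348 CPM) in MHCC97H and 18 reads (788 CPM) in HepG2, with a ratio of 0.442 (0.266 to 0.774). Their seeds, printed above, are distinct. Set against each other, the miR-411-5p ratio was 0.527 of the miR-379-5p ratio, with an exact 95% interval of 0.295 to 0.982. This pair was compared after its values were seen.

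The other called members of the distal segment were miR-494-3p and miR-382-3p. miR-494-3p had 26 reads (85.4 CPM) in MHCC97H and 7 reads (307 CPM) in HepG2, with a ratio of 0.279 (0.118 to 0.76). miR-382-3p had 50 reads (164 CPM) in MHCC97H and 10 reads (438 CPM) in HepG2, with a ratio of 0.375 (0.188 to 0.829). Its partner miR-382-5p had 59 reads (193.8 CPM) in MHCC97H and 5 reads (219 CPM) in HepG2, with a ratio of 0.885 (0.359 to 2.83). The 3 called members with fewest HepG2 reads, miR-136-3p, miR-494-3p and miR-382-3p, rested on 7 to 10 of them.

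The remaining abundant distal members were not called. miR-381-3p had 718 reads (2358 CPM) in MHCC97H and 58 reads (2540 CPM) in HepG2, with a ratio of 0.928 (0.71 to 1.23), and with miR-379-5p it led the cluster in both libraries. miR-369-3p, described in human cells to bind the AU-rich element of the TNF message, had 70 reads (230 CPM) in MHCC97H and 7 reads (307 CPM) in HepG2, with a ratio of 0.75 (0.345 to 1.93). miR-409-3p leaned the other way, with 89 reads (292 CPM) in MHCC97H and 2 reads (87.6 CPM) in HepG2, with a ratio of 3.34 (0.897 to 28). It met the size criterion and missed the interval criterion. Its 3.34 rests on 2 HepG2 reads.

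**Figure D3:**
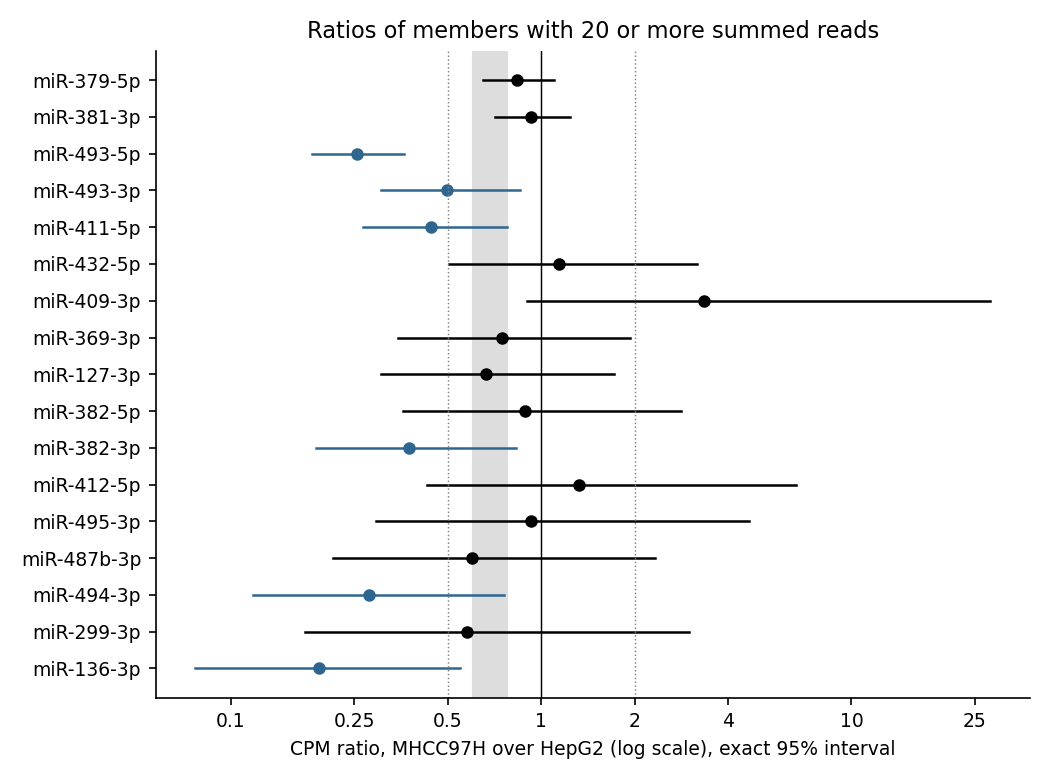
CPM ratio of MHCC97H over HepG2 (x axis, log scale) with exact 95% intervals for the 17 members with at least 20 summed reads, most abundant at the top. Blue marks the 6 members called lower in MHCC97H than in HepG2, the solid line a ratio of 1, dotted lines 2-fold either way and the grey band the interval of the cluster's summed ratio, 0.604 to 0.774.

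At 100 or more reads in both libraries together, 5 of the 53 members and 181 of all miRNAs remained. The 5 members (miR-379-5p, miR-381-3p, both arms of miR-493 and miR-411-5p) had ratios under 1, as did 24.9% of the 181. Their median log2 ratio (log2 of CPM + 1, MHCC97H minus HepG2) was -1.01, while that of the 181 was 1.36. Of the 5 members 3 were called lower in MHCC97H, against 13.3% of the 181, and none was called higher in MHCC97H, against 54.1%. Most summed reads come from the deeper library, so this filter keeps more miRNAs that are abundant in MHCC97H. These counts over 5 members are a description.

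The makeup of the cluster's own reads does not depend on how the libraries are scaled. miR-379-5p and miR-381-3p together took 54.9% of the cluster in MHCC97H (53.0 to 56.8%) and 42.6% in HepG2 (36.8 to 48.5%). miR-493-5p took 5.93% in MHCC97H (5.06 to 6.9%) and 15.9% in HepG2 (11.9 to 20.7%). Relative to the cluster's total, 4 members had a share ratio of MHCC97H over HepG2 whose interval excluded 1. The share was smaller in MHCC97H for miR-493-5p, with a ratio of 0.373 (0.267 to 0.53), and for miR-136-3p, with 0.282 (0.113 to 0.8). It was larger in MHCC97H for miR-381-3p, with 1.36 (1.04 to 1.81), and for miR-409-3p, with 4.89 (1.31 to 41). This share ratio was added after the values were seen. The 10 most abundant members of each library shared 7 names and took 83.8% of the cluster in MHCC97H and 84.4% in HepG2. Across the 53 members Spearman's rho of the 2 libraries' reads was 0.74, and 0.63 over the 17 with at least 20 summed reads. Members are not replicates, and many ties at low counts enter these values.

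**Figure D4:**
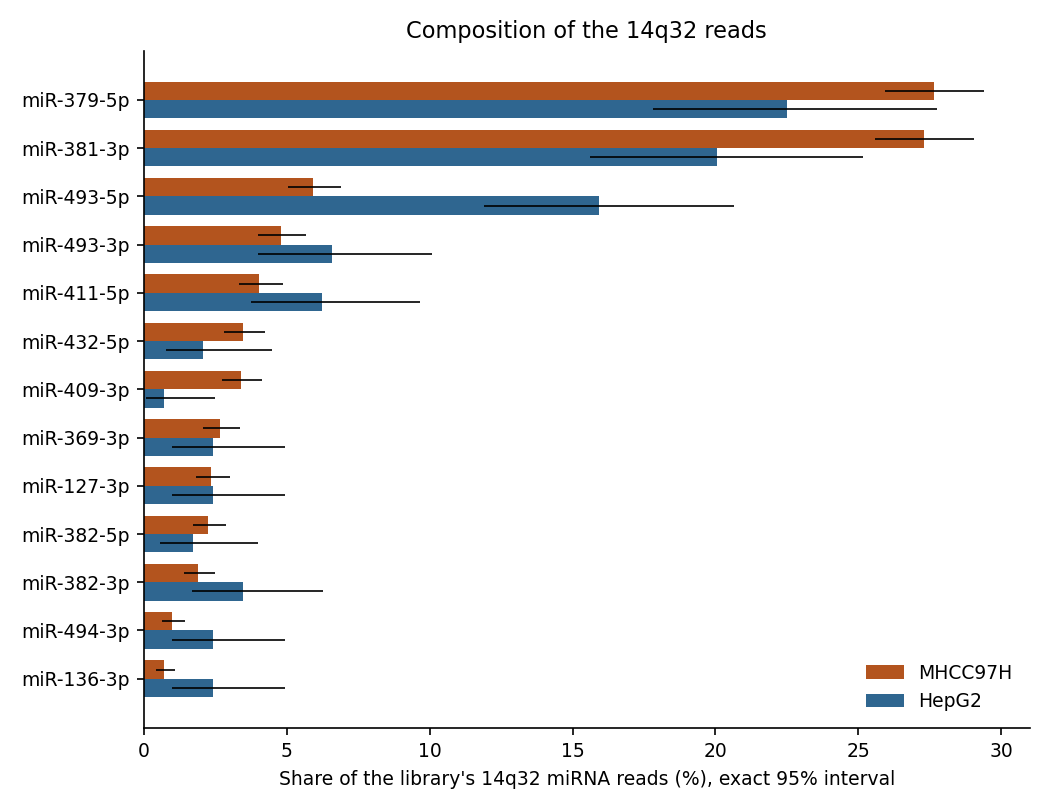
Share of each library's 14q32 miRNA reads (%, x axis) for the 13 members among the 10 most abundant of either library, bars for MHCC97H above HepG2, with exact 95% intervals. miR-493-5p took 5.93% in MHCC97H and 15.9% in HepG2, and miR-409-3p took 3.38% in MHCC97H and 0.692% in HepG2.

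Arm use differed widely between hairpins of the cluster. Both arms were listed for 14 hairpin names, and in MHCC97H the 5p arm led in 6 and the 3p arm in 8. miR-379 was read almost wholly from its 5p arm, at 99.5% in MHCC97H (98.6 to 99.9%) and 100% of 65 reads in HepG2 (lower end 94.5%). miR-411 was at 98.1% in MHCC97H (93.5 to 99.8%) and 100% of 18 reads in HepG2 (lower end 81.5%). miR-409 was read mostly from its 3p arm, with 10.1% from the 5p arm in MHCC97H (4.95 to 17.8%) and 0 of 2 reads in HepG2. The hairpin of miR-493 gave both arms, with 55.3% from the 5p arm in MHCC97H (49.3 to 61.2%) and 70.8% in HepG2 (58.2 to 81.4%). That of miR-382 also gave both, with 54.1% from the 5p arm in MHCC97H (44.3 to 63.7%) and 33.3% of 15 reads in HepG2 (11.8 to 61.6%). The odds of a 5p read were compared directly between libraries in the 12 hairpins with reads in both. For miR-493 they were lower in MHCC97H, with an odds ratio of MHCC97H over HepG2 of 0.512 (exact 95% interval 0.269 to 0.945). The intervals of the other 11 included 1. These intervals are not adjusted for the number of hairpins compared. Over all members with an arm in the name, the 5p arm gave 49.2% of reads in MHCC97H (47.3 to 51.2%) and 51.7% in HepG2 (45.8 to 57.6%). Without miR-493, miR-379-5p and miR-381-3p the order turned, at 45.6% in MHCC97H (42.3 to 48.9%) and 38% in HepG2 (28.5 to 48.3%). The hairpin of MIR382 (chr14:101054306-101054381, plus strand, GRCh38.p14), which gave both arms, and that of MIR379 (chr14:101022066-101022132, plus strand), which gave nearly 1 arm alone, are shown with the 5p and then the 3p arm in capitals.
MIR382: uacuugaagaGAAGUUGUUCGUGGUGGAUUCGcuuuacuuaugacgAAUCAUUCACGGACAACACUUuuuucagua
MIR379: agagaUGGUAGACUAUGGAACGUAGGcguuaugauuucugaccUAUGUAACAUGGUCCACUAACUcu

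**Figure D5:**
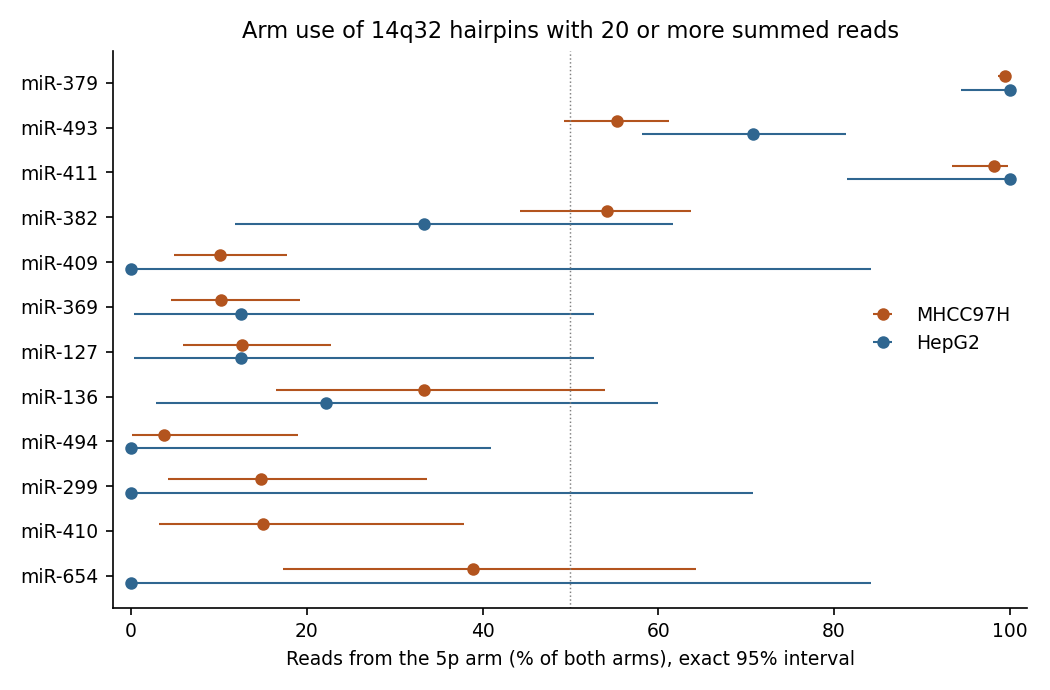
Reads from the 5p arm as a percentage of both arms (x axis) for the 12 hairpins of the cluster with at least 20 summed reads, MHCC97H above HepG2, with exact 95% intervals. miR-379 and miR-411 sit near 100% in both libraries, miR-493 and miR-382 lie between 33.3% and 70.8%, and miR-410 had no HepG2 read.

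The 36 members under 20 summed reads held 188 reads in MHCC97H and 19 in HepG2, with a ratio of 0.742 (0.462 to 1.26). They include the miR-376 family, which is known for A-to-I RNA editing of its seed in humans and mice. miR-376a-3p had 0 reads in MHCC97H and 1 in HepG2. miR-376b-3p had 1 read in MHCC97H and 0 in HepG2, and miR-376c-3p had 4 in MHCC97H and 1 in HepG2. Whether edited reads were counted depends on the mismatch setting of the alignment, which no source used here gives. The mature sequences of miR-376a-3p and miR-376b-3p are 2 edits apart, as are those of miR-379-3p and miR-411-3p, so reads could be split between such names. Both pairs are shown for their shared seed in capitals.
miR-376a-3p: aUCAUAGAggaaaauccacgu
miR-376b-3p: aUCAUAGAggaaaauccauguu
miR-379-3p: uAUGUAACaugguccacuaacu
miR-411-3p: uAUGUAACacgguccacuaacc

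Other miRNAs of imprinted or neighboring loci did not move alike. Of 6 further names of the same domain, 1 was listed, miR-1197, with 7 reads in MHCC97H and 0 in HepG2. The interval of its ratio, with a lower end of 0.108, included 1. The 14q32 miRNAs outside the domain (miR-342, miR-345 and miR-203a) together had 313 reads in MHCC97H, 11 in HepG2 and a ratio of 2.13 (1.18 to 4.32). Among them miR-203a-3p had 151 reads in MHCC97H and 2 in HepG2, with a ratio of 5.66 (1.54 to 47.2). The ratios of miR-342-3p, at 1.45 (0.602 to 4.58), and miR-345-5p, at 0.994 (0.366 to 3.78), had intervals that included 1. The chromosome 19 cluster C19MC, another large imprinted miRNA cluster, had 7 reads in MHCC97H and 1 in HepG2. Scaled for depth, its ratio was 0.525 (0.0674 to 23.7), an interval that includes 1. At other imprinted loci, miR-483-5p of IGF2 had 0 reads in MHCC97H and 124 in HepG2, while miR-675-5p of H19 had 120 reads in MHCC97H and 0 in HepG2.

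Marker miRNAs of the liver and of other cell types also differed between the libraries. The 12 mature miRNAs of the liver list summed to 42459 CPM in MHCC97H and 169550 CPM in HepG2, with a ratio of 0.2504 (0.242 to 0.26), and 11 of them were read in MHCC97H and 7 in HepG2. The ratio was 0.571 (0.525 to 0.622) without miR-148a-3p, the most abundant of them. The hepatocyte miRNA miR-122-5p had a ratio of 0.931 (0.614 to 1.48), and miR-885-5p had 0 reads in MHCC97H and 8 in HepG2. The abundant miR-101-3p, with 3172 reads in MHCC97H and 250 in HepG2, had a ratio of 0.951 (0.836 to 1.09). The intervals of miR-122-5p and miR-101-3p included 1. Lower in MHCC97H were miR-192-5p, at 0.223 (0.193 to 0.259), and miR-194-5p, at 0.0852 (0.0625 to 0.116). In the other direction, miR-148a-5p was at 3.03 (1.63 to 6.37), on 404 reads in MHCC97H and 10 in HepG2. Of the 5 red cell miRNAs, 5 were read in MHCC97H and 4 in HepG2, and they summed to 12327 CPM in MHCC97H and 25316 CPM in HepG2, with a ratio of 0.487 (0.446 to 0.532). That direction came from miR-451a, since without it the ratio was 1.84 (1.53 to 2.23). The 5 leukocyte miRNAs were all read in both, at 2276 CPM in MHCC97H and 5212 CPM in HepG2, with a ratio of 0.437 (0.359 to 0.535). Without miR-142-3p it was 0.794 (0.608 to 1.05), an interval that includes 1. Of the 10 mesenchymal miRNAs, 10 were read in MHCC97H and 9 in HepG2, at 24128 CPM in MHCC97H and 29959 CPM in HepG2, with a ratio of 0.805 (0.745 to 0.872). This sum holds both miR-199a-3p and miR-199b-3p, whose reads were equal. The endothelial pair stood at 6507 CPM in MHCC97H and 7227 CPM in HepG2, with a ratio of 0.9 (0.768 to 1.06). Its arms differed, with miR-126-3p at 1.04 (0.872 to 1.24). miR-126-5p, with 60 reads in MHCC97H and 26 in HepG2, was at 0.173 (0.108 to 0.286). Muscle miRNAs went the other way, at 5301 CPM in MHCC97H and 394 CPM in HepG2, with a ratio of 13.4 (7.07 to 29.5). Of the 4, all were read in MHCC97H and only miR-1-3p in HepG2, with 9 reads. The liver and mesenchymal sums were lower in MHCC97H, as was that of the 14q32 cluster, and so were the red cell and leukocyte sums with the exceptions given. The part of these lists in the 14q32 result was not tested.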

How the data were processed

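The deposited table holds the authors' read counts (whole numbers) for each mature miRNA, with a column per library, per the file headers. Adapter trimming and alignment used cutadapt and Bowtie, per the submitters' processing notes. Not given in the sources used here: their versions, the mismatch setting, the miRNA release and the genome build. Its 915 entries carry 793 names. A repeated name was used at its highest count, and the 2 repeated member names had equal counts. Of all 78 repeated names, 30 had unequal counts, so this choice sets the library totals. With repeated entries summed the totals were 377685 reads in MHCC97H and 25156 in HepG2. No per-sample column was left out.

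CPM was computed from the summed miRNA reads. A call needed a ratio of at least 2-fold and an exact 95% interval of the split of reads that excluded 1, over all miRNAs with no filter on low values. No quasi-likelihood test was possible with 1 library per line, and no p-value is given. The procedure was tested on simulated data. Pairs of read splits were compared by exact conditional odds ratios with 95% intervals, added after the values were seen. Log2 ratios used a pseudocount of 1 CPM.

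Described in full were called members, the 10 most abundant of each library, and hairpins with 100 or more reads over both arms, and of other lists at most 3 members. Others named, among them further liver miRNAs, were chosen after their values were seen. Members and lists were chosen with earlier results of these data known. Sequences and positions are RefSeq's (GRCh38.p14), host genes GENCODE release 29's (GRCh38). Neither was used in counting. Alternatives changed scaling, criteria, filter, pseudocount and repeats. Intervals came from scipy 1.17.1 under Python 3.11.15, tables from pandas 2.3.3 with numpy 2.4.6, and plots from matplotlib 3.10.9. The alternative scaling by trimmed mean of M-values came from edgeR 4.0.16 in R 4.3.3.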

Additional observations from a re-analysis of the deposited data

How the results depend on the processing

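Scaling by the cluster's own reads sets the summed ratio of MHCC97H over HepG2 to 1 by construction. Alternatives of criteria, filter and pseudocount cannot change it. In the other alternatives the summed ratio, 0.683 in the main run, stayed under 1. It was 0.431 with totals that left out the 10 most abundant miRNAs of each library and 0.603 with repeated entries summed. It was 0.786 without both arms of miR-493 and 0.536 without miR-379-5p and miR-381-3p, alternatives chosen after seeing the data. The count of 6 members called lower in MHCC97H was 1 at 4-fold (miR-136-3p), 3 with a 99% interval (miR-493-5p, miR-411-5p and miR-136-3p), 3 among miRNAs with at least 100 summed reads, 17 by size alone, and 2 when scaled by the cluster's own reads. It was 4 to 8 under the others, 7 of them with edgeR's trimmed mean of M-values and 8 with repeats summed. The count of 0 called higher in MHCC97H was 22 by size alone and 1 (miR-409-3p) when scaled by the cluster's reads, also chosen after seeing the data. The median log2 ratio of -1.01 lay between -1.67 and -0.11 across its alternatives, the last without a filter on low values. The median of all miRNAs was then 2.10. With totals that left out the most abundant miRNAs, the median of all miRNAs with 100 summed reads was 0.69, a shift of the whole scale. Members lay 2.36 below it with either scaling, but a change of totals moves both medians nearly alike and cannot test this gap. Other cuts on reads could change it. The member median minus that of all miRNAs was -1.55 with a cut at 50 summed reads and -1.59 at 200. Without a filter it was -2.21. It was -1.61 without both arms of miR-493, and -2.53 without miR-379-5p and miR-381-3p. Detection in HepG2 was 16 of 53 members at 3 or more reads. No paired analysis was possible because each cell line has 1 library. Leaving out a replicate was not possible for the same reason. Depth in HepG2 limits most members.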
